A study of Mus with 17 samples.

Results

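The genes described here handle fatty acids at the surface of liver cells and in the blood vessels of the liver. They are Cd36 and the transport proteins Slc27a1, Slc27a2 and Slc27a4, the fatty acid binding proteins Fabp1, Fabp2 and Fabp4, the lipases Lpl and Lipc, and the lipoprotein receptor Vldlr. They were taken by symbol from a list chosen for function, and all 10 were found among the 24940 genes of each file. RNA from whole livers of male C57BL6/JBomTac mice was sequenced in bulk, 1 library for each animal. For 52 weeks, 8 mice ate a western diet and drank water holding 42 g/L fructose, a regimen meant to bring on advanced steatohepatitis, while 9 mice of equal age ate standard chow and drank pure water. No genetic change is named for either group, and every mouse went without food on the night before it was killed.

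Lipoprotein lipase and hepatic lipase split the triglycerides that lipoproteins carry in the blood, and the fatty acids set free can then enter cells. CD36 and the fatty acid transport proteins of the SLC27 family aid that entry, and the binding proteins carry fatty acids through the cytosol. In the adult liver hepatic lipase is made by hepatocytes, whereas lipoprotein lipase is known mainly from fat, muscle and macrophages, and the VLDL receptor is normally scarce in liver.

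Library totals were 3604212 to 8818385.5 counts on western diet, against 5231165.5 to 9071908.5 counts on chow. All 10 genes passed the low count filter, as did 13204 genes in all. Levels are given as CPM, the share of the library's counts that a gene takes, multiplied up to a common library size, scaled by the TMM factors of edgeR. They are not corrected for transcript length, so levels of different genes are not compared. As a check of the tissue, 6 hepatocyte markers summed to 7506 to 12760.5 CPM on western diet, against 9482.5 to 12639.8 CPM on chow. Genes are said to have risen or fallen where the adjusted p (edgeR's quasi-likelihood test, Benjamini-Hochberg over all genes tested) was under 0.05.

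On western diet, 3 of the 10 genes rose, 3 fell and 4 did not pass the test. The lipase Lpl, the uptake receptor Cd36 and the lipoprotein receptor Vldlr rose. The binding protein Fabp1 and the transport proteins Slc27a2 and Slc27a4 fell. Among all genes tested, 48.4% were called in either direction, 24.8% as risen and 23.6% as fallen, so the share of called genes among the 10 was near that of the liver transcriptome as a whole. The median log2 difference of the 10 genes was -0.051, beside -0.0091 over all genes tested. Lpl alone among the 10 had every library of one diet clear of every library of the other, a pattern found upward in 6.98% of all genes tested. Downward separation was found in 5.05% of them and in none of the 10.

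**Figure D1:**
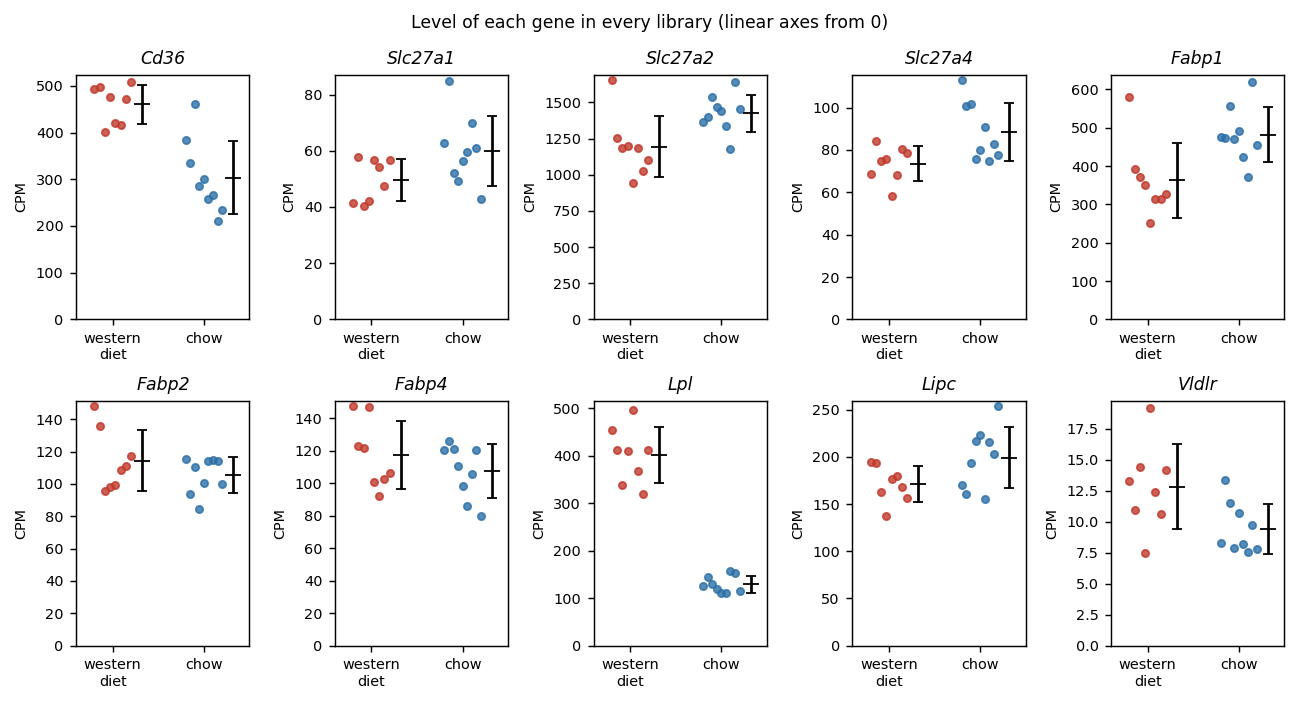
Level of each of the 10 genes in CPM, with 1 point per mouse (8 on western diet, 9 on chow) and bars for the mean and SD. Lpl is the gene whose groups are fully separated, Cd36 overlaps in 1 chow library, and the other genes overlap more widely.

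Lpl, lipoprotein lipase, lies on chromosome 8 from 68880555 to 68906932 (mm10) and showed the largest difference of the 10 genes. Its level was lowest at 319.5, median 411 and highest at 496 CPM on western diet, against 110.5, 127 and 157 CPM on chow. Every western diet library thus lay above every chow library. The means were 402 ± 58.5 CPM (SD, n = 8) after western diet, against 129.6 ± 17.7 CPM (SD, n = 9) after chow, a log2 difference of 1.63 ± 0.096 (SE) or 3.10-fold (edgeR adjusted p = 2.92e-10). Of all genes tested, 2.56% had a larger rise. Lpl was also the only one of the 10 genes to pass a test against a change of 1.5-fold in place of no change. Leaving out any 1 library gave log2 differences from 1.59 to 1.68.

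Markers of lipid-associated macrophages, cells that themselves make lipoprotein lipase, moved with Lpl. All 10 markers of that list rose, and their summed level was 521 to 1102 CPM on western diet and 165 to 235 CPM on chow. Trem2, a lipid-sensing receptor of these cells, averaged 26.4 ± 7.18 CPM on western diet and 3.72 ± 1.40 CPM on chow. Adipocyte markers did not rise as a list. Their sum was 93.8 to 157 CPM on western diet and 86.7 to 155 CPM on chow, and of the 6 tested, 1 rose and 3 fell. Sums of skeletal muscle markers were 9.69 to 16.97 CPM on western diet and 8.28 to 20.3 CPM on chow. Markers of other cells moved too. Of 6 stellate cell markers 5 rose, with sums of 312 to 611 CPM on western diet and 245 to 309.5 CPM on chow. Of 6 capillary endothelium markers, 3 rose and 0 fell, and of 5 sinusoidal endothelium markers, 2 rose and 1 fell. The called share of the capillary list, 50%, was near the 48.4% of all genes tested. Kupffer cell markers were mixed, as 3 of 6 rose and 2 fell, Cd163 and Marco, with log2 differences of -4.32 and -2.94. The part of any of these cells in the rise of Lpl was not tested. In bulk RNA, a change in the number of cells of a type and a change in RNA per cell cannot be told apart.

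Within a diet, where the diet itself plays no role, Lpl and the macrophage markers gave a Pearson r of 0.73 over the 8 western diet libraries (Spearman rho = 0.64). The exact permutation p was 0.0387 and 0.290 after adjustment over the 30 relations of that diet. Over the 9 chow libraries r was 0.76 and rho 0.80, with an exact permutation p of 0.0185 and an adjusted p of 0.185. Neither relation passed, and without the 2 libraries farthest from the median of the marker score r was 0.36 on western diet and 0.61 on chow. With the mean of each diet taken out, the genes most like Lpl over the 17 libraries were Tmem45b at r = 0.81 and Tenm4 at r = 0.80, given as a description. On the same footing the median r of Lpl was 0.50 with the macrophage markers, 0.49 with the pancreatic markers, which 2 libraries dominate, and 0.26 with the stellate cell markers.

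Lipc, hepatic lipase (chromosome 9, 70798128 to 70952221), did not follow Lpl. It had 138, 172 and 195 CPM as lowest, median and highest level on western diet, against 155, 203 and 254 CPM on chow. The groups overlapped, although all 8 western diet libraries lay below the chow median. The log2 difference was -0.22 ± 0.095 (edgeR adjusted p = 0.0658), which did not pass. It passed with 1 of 3 single libraries left out, western diet replicate 1 or chow replicates 2 or 6, where the adjusted p was 0.0289 to 0.0464, and with the clock genes as a covariate (0.0293).

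The balance of both vessel lipases was therefore taken within each library. The ratio of Lpl to Lipc was 1.90 to 2.97 on western diet and 0.453 to 0.896 on chow, with no overlap. On the log2 scale, with 0.5 CPM added to each level, it averaged 1.22 ± 0.24 (SD, n = 8) after western diet, against -0.61 ± 0.32 (SD, n = 9) after chow, a difference of 1.83. An exact two-sided permutation test over all 24310 labellings gave p = 4.11e-05, the smallest it can give, and 8.23e-05 after adjustment over the 2 ratios tested. Since the genes differ in length, only the change of the ratio between diets is read, not its size. The ratio was chosen with the differences of both genes known, so it restates them within single livers.

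**Figure D2:**
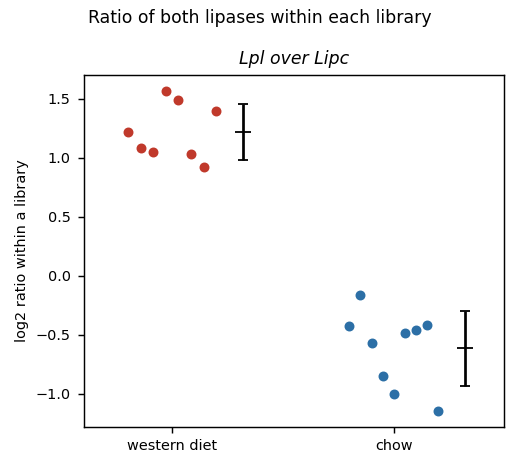
Log2 ratio of Lpl to Lipc within each library, with 1 point per mouse and bars for the mean and SD of 8 western diet and 9 chow libraries. Every western diet point lies above every chow point.

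The other lipases and their helpers moved unevenly. Lipg, endothelial lipase, which acts mainly on the phospholipids of high-density lipoprotein, averaged 16.96 ± 7.66 CPM on western diet and 38.5 ± 8.91 CPM on chow, a log2 difference of -1.15 ± 0.24 (edgeR adjusted p = 0.000618). Lipa, the lysosomal acid lipase, had 478 ± 42.9 CPM on western diet and 523 ± 47.8 CPM on chow and did not pass (edgeR adjusted p = 0.128). Among the 13 tested genes that anchor, fold or regulate the lipases, 38.5% were called, beside 48.4% of all genes tested. In that list 1 rose, 4 fell and 8 did not pass. The one that rose was Apoc2, the obligate activator of lipoprotein lipase, at 206 ± 41.4 CPM on western diet and 147 ± 13.5 CPM on chow, 1.40-fold (edgeR adjusted p = 0.00047). Apoa5, a secreted apolipoprotein that favours lipolysis, fell to 879 ± 208 CPM on western diet, against 1217 ± 133 CPM on chow (edgeR adjusted p = 0.00311).

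Angptl4, an inhibitor of lipoprotein lipase induced by fasting, fell to 159.7 ± 29.5 CPM on western diet, against 245 ± 60.2 CPM on chow, a log2 difference of -0.62 ± 0.14 (edgeR adjusted p = 0.00151). Its relative Angptl8 did not pass, with a log2 difference of 0.52 that was 0.27 without western diet replicate 1. Angptl8 was spread widely on western diet, from 21.1 to 128 CPM, against 22.5 to 75.2 CPM on chow. Gpihbp1, which holds lipoprotein lipase on the capillary wall, had 31.5 ± 5.91 CPM on western diet and 26.7 ± 4.34 CPM on chow and did not pass (edgeR adjusted p = 0.0802). Lmf1, which the lipases need to fold, and Apoc3, an inhibitor of lipolysis, did not pass either, with log2 differences of -0.16 and -0.14. Single libraries decide these: Gpihbp1 passed without western diet replicate 1 or chow replicates 1 or 3 (adjusted p = 0.0346 to 0.046), Lmf1 without western diet replicate 1 or chow replicates 2, 3 or 8 (0.0327 to 0.0465), and Apoc3 without western diet replicate 1 (0.0364). The log2 difference of Apoc3 was then -0.24, and it was -0.077 and -0.090 without western diet replicates 5 and 7.

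Vldlr, the very low density lipoprotein receptor (chromosome 19, 27216480 to 27254231), was the least counted of the 10 genes. A library held 39 to 167 of its counts on western diet, against 43.5 to 86 on chow. The level was 7.49, 12.9 and 19.2 CPM as lowest, median and highest on western diet, against 7.57, 8.31 and 13.35 CPM on chow. The groups overlapped at both ends, with 3 of 8 western diet libraries above the highest chow library and 1 below the lowest. The log2 difference was 0.45 ± 0.16, 1.37-fold (edgeR adjusted p = 0.024), and it was 0.35 with an adjusted p of 0.0619 without western diet replicate 5. That library held the highest level of its diet, and chow replicate 2 the highest of chow. Both stood out by pancreatic RNA, as given below. Without both, the log2 difference was 0.42 (edgeR adjusted p = 0.0185).

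Other lipoprotein receptors moved in both directions. Of the 13 other lipoprotein receptors and adaptors tested, 2 rose, 6 fell and 5 did not pass. The share called was 61.5%, beside 48.4% of all genes tested. Lrp1, the large receptor for lipoprotein remnants, had 1476 ± 247 CPM on western diet and 1649 ± 180.0 CPM on chow and did not pass (edgeR adjusted p = 0.180), though it did without western diet replicate 4 (0.023).

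Cd36, the scavenger receptor that also takes up long-chain fatty acids (chromosome 5, 17781690 to 17888959), was the member of the membrane uptake group that rose. It had 402, 473 and 509 CPM as lowest, median and highest level on western diet, against 210.0, 286 and 461 CPM on chow. On western diet 5 of 8 libraries lay above the highest chow library, and 8 of 9 chow libraries lay below the lowest western diet library. The log2 difference was 0.60 ± 0.12, 1.52-fold (edgeR adjusted p = 5.05e-04), and stayed between 0.55 and 0.70 with any 1 library left out.

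The spread of Cd36 differed between the diets, with a coefficient of variation of 9.02% on western diet and 25.9% on chow. The chow libraries fall into separate clusters by Dbp, a gene under direct control of the circadian clock. In 3 of them, replicates 1 to 3, Dbp was 8.23 to 13.0 CPM, and in the other 6 it was 46.1 to 203 CPM. Cd36 was 334 to 461 CPM in those 3 libraries and 210.0 to 299 CPM in the other 6. Slc27a4 showed the same order, at 101 to 113 CPM in the 3 and 74.8 to 90.6 CPM in the other 6. Its median was 102 CPM in the 3 and 78.8 CPM in the other 6, against 75.1 CPM on western diet. Dbp was 10.8 to 88.5 CPM on western diet. These values were seen after the libraries were sorted by Dbp, carry no test, and the part of the hour of sampling was not tested. With the first principal component of the clock genes as a covariate, Cd36 and Slc27a4 kept their calls. That component was computed with the mean of each diet taken out. It therefore cannot take up a clock difference between the diets, and the fit does not bear on one.

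Slc27a2, the transport protein that also acts as a very long-chain acyl-CoA synthetase (chromosome 2, 126553024 to 126588243), fell by a small amount. It had 944, 1184 and 1658 CPM as lowest, median and highest level on western diet, against 1176, 1439 and 1642 CPM on chow. The spread was wide: 3 western diet libraries lay below the lowest chow library, 7 of 8 lay below the chow median, and the highest library of all was on western diet. The log2 difference was -0.25 ± 0.096, 1.19-fold lower (edgeR adjusted p = 0.0344). Leaving out a single library ended the call in 8 of 17 cases, namely without western diet replicates 5, 6, 7 or 8 or chow replicates 3, 4, 5 or 8, where the adjusted p was 0.0502 to 0.0752 and the log2 difference -0.25 to -0.21.

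Slc27a4, known as the main transport protein of the gut and skin (chromosome 2, 29802634 to 29817522), had 58.5, 75.1 and 84.1 CPM as lowest, median and highest level on western diet, against 74.8, 82.9 and 113 CPM on chow. The groups overlapped, with 4 western diet libraries below the lowest chow library. Above the highest western diet library lay 4 chow libraries, among them the 3 with low Dbp. The log2 difference was -0.27 ± 0.090, 1.20-fold lower (edgeR adjusted p = 0.0193). Slc27a1, the family member best known from muscle and fat (chromosome 8, 71568728 to 71587307), had a difference of like size that did not pass. It had 40.4, 50.8 and 57.9 CPM on western diet, against 42.8, 59.7 and 84.9 CPM on chow. Its log2 difference was -0.27 ± 0.12 (edgeR adjusted p = 0.064), and all 8 western diet libraries lay below the chow median. It passed without chow replicate 4 (adjusted p = 0.0464) or chow replicate 9 (0.0228).

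Around these transporters, acyl-CoA synthetases trap fatty acids in the cell by joining them to coenzyme A. Of 8 further uptake and ligase genes tested, 1 rose, 4 fell and 3 did not pass. The share called was 62.5%, beside 48.4% of all genes tested. Acsl1, the main synthetase of liver, fell to 1122 ± 194 CPM on western diet, against 2172 ± 239.7 CPM on chow, with no overlap (log2 difference -0.95 ± 0.10, edgeR adjusted p = 4.85e-07). Slc27a5, the liver transport protein that also conjugates bile acids to coenzyme A, fell to 738 ± 89.2 CPM on western diet, against 877 ± 83.0 CPM on chow (log2 difference -0.25 ± 0.081, edgeR adjusted p = 0.0152). Cd36 thus rose while the hepatocyte transport proteins Slc27a2 and Slc27a5 fell by similar log2 differences.

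Fabp1, the liver fatty acid binding protein and the chief carrier of fatty acids in hepatocytes (chromosome 6, 71199879 to 71205034), fell. It had 250.2, 339 and 579 CPM as lowest, median and highest level on western diet, against 371, 473 and 620.2 CPM on chow. On western diet 5 of 8 libraries lay below the lowest chow library, while replicate 1 stood apart at the top. The log2 difference was -0.41 ± 0.13, 1.33-fold lower (edgeR adjusted p = 0.0137), with a range of -0.54 to -0.34 when any 1 library was left out.

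Fabp2, the intestinal binding protein (chromosome 3, 122895072 to 122899506), had 95.7, 110.1 and 148 CPM as lowest, median and highest level on western diet, against 84.5, 110.5 and 115 CPM on chow. The medians were close, and 3 western diet libraries lay above the highest chow library. Its log2 difference was 0.12 (95% interval -0.060 to 0.29, edgeR adjusted p = 0.301), and 0.054 without western diet replicate 1. Of 6 listed enterocyte genes, the digestive enzymes were at or near 0: Alpi, intestinal alkaline phosphatase, had no count in any library, and Sis, sucrase-isomaltase, at most 1 count on western diet and 0.5 on chow, and Lct, lactase, at most 1 count on western diet and 4 on chow. The other listed markers reached higher counts. Cdh17 had at most 7 counts on western diet and 6 on chow, and Vil1, villin, which bile duct cells also make, had 5.5 to 17 counts on western diet, against 0 to 4 on chow, with no overlap. Apoa4, which the mouse liver also makes, rose to 1029 ± 247 CPM on western diet, against 573 ± 179 CPM on chow. The part of gut RNA in the level of Fabp2 was not tested. A count of 0 allows up to 0.331 CPM at the greatest depth and 0.832 CPM at the least, a limit that covers counting error only. A non-coding gene that overlaps Fabp2, 4933405D12Rik, held at most 1 count in a western diet library and 2 in a chow library.

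Fabp4, the binding protein of adipocytes, macrophages and capillary endothelium (chromosome 3, 10204342 to 10208616), had 91.9, 114 and 147 CPM as lowest, median and highest level on western diet, against 79.7, 111 and 126 CPM on chow. The groups overlapped through most of their range. Its log2 difference was 0.12 (95% interval -0.087 to 0.34, edgeR adjusted p = 0.358), which did not pass. It was 0.072 to 0.079 without western diet replicate 1 or 4 or without chow replicate 9. With the mean of each diet taken out, its level over the 17 libraries was most like that of the adipose genes Aoc3 at r = 0.86, Sncg at r = 0.86 and Lep, leptin, at r = 0.82, a description of libraries that share depth and tissue. By marker list its median r was 0.63 with adipocyte, 0.62 with skeletal muscle and 0.56 with hepatocyte markers, and it was -0.070 with the adipocyte marker Adrb3. From which cells the Fabp4 RNA came was not tested. Lep was itself among the adipocyte markers and fell to 15.0 ± 2.76 CPM on western diet, against 20.1 ± 4.88 CPM on chow (edgeR adjusted p = 0.0199).

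Of the 7 further binding proteins listed, 4 were tested, 2 rose and 2 did not pass. The share called was 50%, beside 48.4% of all genes tested. Fabp5, the epidermal form also found in macrophages, averaged 18.6 ± 7.15 CPM on western diet and 7.65 ± 5.37 CPM on chow, a log2 difference of 1.32 ± 0.30 (edgeR adjusted p = 0.00169). Fabp7, the brain form, averaged 16.7 ± 4.16 CPM on western diet and 6.13 ± 1.43 CPM on chow, 2.71-fold (edgeR adjusted p = 7.59e-07), with no overlap. Dbi and Scp2, which bind acyl-CoA and sterols, did not pass, with log2 differences of -0.18 and -0.11.

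**Figure D3:**
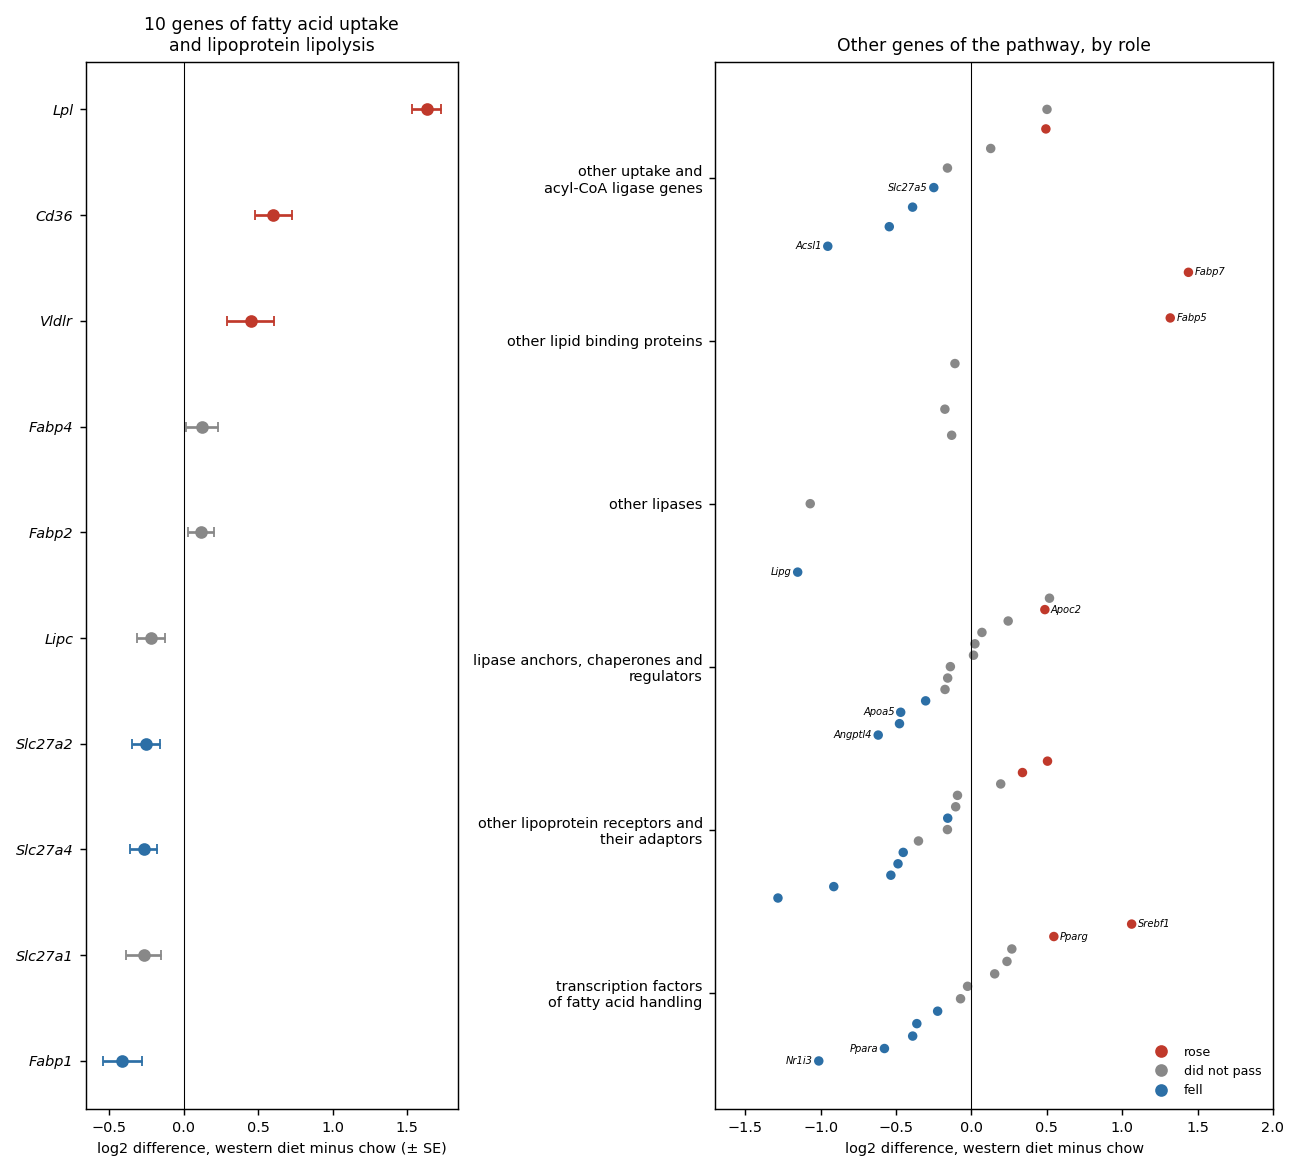
Log2 difference, western diet minus chow, of the 10 genes and the named genes of the pathway, of the 10 genes with bars of 1 SE (left) and of the 53 tested genes of the pathway by role (right, some called genes named), with colour for the call. Lpl at 1.63 lies farthest to the right of the 10 genes, and Fabp1 at -0.41 farthest to the left.

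Fabp1 and Slc27a2 varied together. With the mean of each diet taken out, their r over the 17 libraries was 0.96, and Mup20, a major urinary protein, was the gene most like both, at r = 0.97 with Fabp1 and 0.98 with Slc27a2. The next most like were Edf1 for Fabp1 and the respiratory subunits Cox8a and Cox4i1 for Slc27a2. Cd36 was most like Tmem64 at r = 0.92, and its r with Slc27a4, whose call went the other way, was 0.66. Lipc was most like Hsd3b3 at r = 0.90, and Vldlr most like Cep97 at r = 0.83. Slc27a1 was most like Psd4 at r = 0.86, Slc27a4 most like Myo1e at r = 0.91 and Fabp2 most like 9130019O22Rik at r = 0.78. These correlations are descriptions over libraries that share tissue and sequencing and carry no test.

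Within a diet, Slc27a2 and Fabp1 were the genes that followed the score of 6 hepatocyte markers. The score was itself highest in the shallowest library of each diet and lowest in the deepest. It was 1.45 and -1.11 there on western diet (replicates 1 and 7), and 1.21 and -1.60 on chow (replicates 8 and 7). Counts of both genes grew less than in proportion to depth, as given below. The part of depth in their relations with the score was not tested. On western diet Slc27a2 gave r = 0.88 and rho = 0.86, and Fabp1 gave r = 0.88 and rho = 0.90, each with an adjusted p of 0.0394 for r by an exact permutation test, while the adjusted p for rho was 0.154 and 0.137. Without the 2 libraries farthest from the median of the score, r was 0.74 for Slc27a2 and 0.86 for Fabp1. On chow Slc27a2 gave r = 0.95 and rho = 0.93 (adjusted p = 0.00909 for r, exact permutation test), and r = 0.79 without the 2 farthest libraries, while Fabp1 gave r = 0.88 and rho = 0.63 and did not pass, with an adjusted permutation p of 0.05 at the threshold itself. These were the relations past the threshold, 2 of 30 on western diet and 1 of 30 on chow. Without western diet replicate 5, none of the 30 passed on western diet. The adjusted p was then 0.146 for Slc27a2 and 0.125 for Fabp1, with 3 of the 30 at an unadjusted exact permutation p under 0.05. The same relations with Dbp gave 0 past the threshold by exact permutation tests in either diet, with 0 of 10 on western diet and 1 of 10 on chow, taken there over the 6 libraries above the gap, at an unadjusted p under 0.05.

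**Figure D4:**
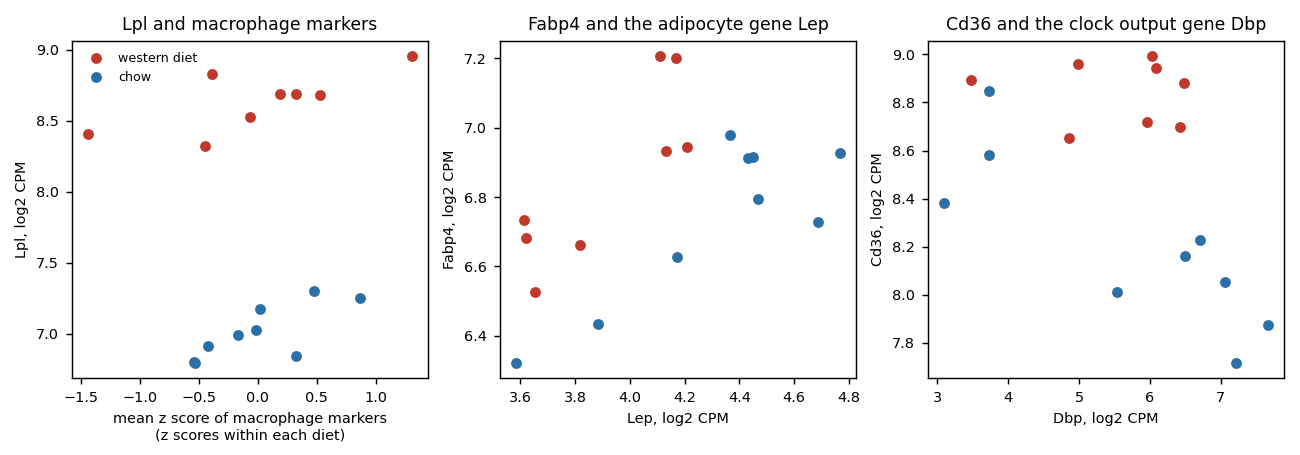
Lpl against the score of macrophage markers, Fabp4 against the adipocyte gene Lep and Cd36 against the clock output gene Dbp, levels in log2 CPM, 1 point per library of either diet. Lpl tends upward with the score within both diets without passing the test, and the 3 chow libraries with low Dbp hold the highest Cd36 of that diet.

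The counts of both genes grew less with library depth than those of most genes. Within a diet, a gene counted in proportion to depth has a slope of 1 between the log2 of its count and the log2 of the library total. The slope was 0.39 for Fabp1, lower than in all but 0.545% of genes tested, and 0.62 for Slc27a2, against a median of 1.17 over all genes tested. Low slopes were common in the count range of Slc27a2, with a median of 0.81 among its 299 genes. They were not common in the range of Fabp1, with a median of 1.08 among 1191 genes. Fabp4 had a slope of 0.67, lower than in all but 3.51% of genes tested, beside a median of 1.17 in its count range. Fabp1 had 1832.5 to 2999.5 counts on western diet, against 2625.5 to 3377.5 on chow, a range of 1.64-fold and 1.29-fold, while library totals spanned 2.45-fold on western diet and 1.73-fold on chow. Albumin, the most abundant protein that hepatocytes secrete, held 0.302% to 0.507% of the total on western diet, against 0.372% to 0.491% on chow. Lpl, with a slope of 1.05, and Cd36, with 1.09, did not share this pattern. With the log2 library total as a covariate, a choice made after seeing the data, the log2 difference was -0.49 for Fabp1 (edgeR adjusted p = 1.04e-05) and -0.31 for Slc27a2 (edgeR adjusted p = 3.52e-05). What keeps these counts from growing with depth was not tested.

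**Figure D5:**
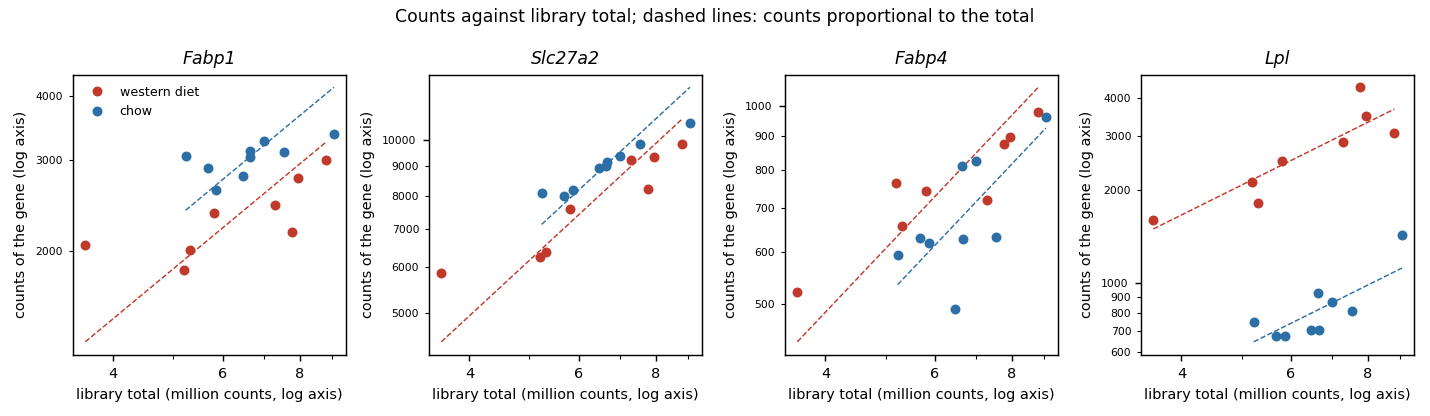
Deposited counts of Fabp1, Slc27a2, Fabp4 and Lpl against the library total, both on log axes, 1 point per library, with dashed lines for counts proportional to the total within a diet. Counts of Fabp1 stay between 1832.5 and 3377.5 over the whole range of totals, whereas those of Lpl follow the lines more closely.

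The choice of scaling bears on the small differences. With library size alone in place of the TMM factors, the median log2 difference of all genes tested was 0.12 in place of -0.0091. Slc27a2 then had -0.13 (edgeR adjusted p = 0.154) and Slc27a4 -0.14 (0.203), and Fabp2 and Fabp4 passed as risen at 0.24 each, with 5 of the 10 genes risen and 1 fallen. Slc27a5 lost its call as well. In that fit 4479 of all genes tested rose and 1621 fell, in place of 3271 and 3122. Against that shift of the median, the differences of Fabp2 and Fabp4 were again about 0.12. No member changed sign under any alternative.

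RNA of the exocrine pancreas was found in every library and stood out in 2 livers. These were western diet replicate 5 and chow replicate 2, where 8 acinar markers summed to 4140 and 12788 CPM. The remaining western diet livers held 140.3 to 293 CPM of them, and the remaining chow livers 137 to 503 CPM. Without both, Lpl (1.60), Cd36 (0.64), Vldlr (0.42) and Fabp1 (-0.35) kept their calls. The calls of Slc27a2 (-0.21, edgeR adjusted p = 0.0852) and Slc27a4 (-0.20, 0.0766) were lost, and Lipc passed as fallen (-0.25, 0.040).

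Transcription factors known for their part in fatty acid handling moved in both directions. Of 12 tested, 2 rose, 5 fell and 5 did not pass. Pparg, the factor of fat cells that is known to drive Cd36, rose to 42.9 ± 3.90 CPM on western diet, against 29.4 ± 5.79 CPM on chow (1.46-fold, edgeR adjusted p = 0.000176). Srebf1, which drives fatty acid synthesis, rose to 263 ± 35.4 CPM on western diet, against 126 ± 67.1 CPM on chow (2.09-fold, edgeR adjusted p = 0.00219). Ppara, the fasting factor that is known to drive Fabp1 and Acsl1 in hepatocytes, fell to 505 ± 114 CPM on western diet, against 755 ± 85.8 CPM on chow (log2 difference -0.58 ± 0.11, edgeR adjusted p = 0.000362). Nr1i3, the nuclear receptor CAR, fell to 141 ± 29.1 CPM on western diet, against 284 ± 30.2 CPM on chow (log2 difference -1.01 ± 0.11, edgeR adjusted p = 5.67e-07). Over the whole pathway list of 53 tested genes, 8 rose, 20 fell and 25 did not pass, with a median log2 difference of -0.16. The share called was 52.8%, near the 48.4% of all genes tested. By role it ran from 33.3% of the other lipases to 62.5% of the uptake and ligase genes. Whether any of these factors acts on the 10 genes in these livers was not tested.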

How the data were processed

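Per the labels, each of the 17 samples is whole liver of 1 mouse; diets were taken from the treatment field, since the source name gives western diet throughout. The authors deposited, for every library, a file of unscaled expected counts by gene symbol, whose values move in steps of 0.5. HOMER, FastQC, MultiQC, STAR 2.4.1c and the build mm10 are named in the submitters' processing notes; the strand setting and other options are not given there, so overlapping or similar genes can share reads.

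Values were rounded to whole counts, and 13204 genes passed filterByExpr. edgeR 4.0.16 (R 4.3.3) gave TMM factors, robust glmQLFit and glmQLFTest on diet alone, with Benjamini-Hochberg adjustment over all genes at 0.05; the SE is the coefficient over the square root of F. Steps were tested on simulated data. Ratios and relations were tested by exact permutation in numpy 2.4.6, with ranks from scipy 1.17.1. Relations were adjusted over 30 per diet. On chow the relation with Dbp was taken within 6 libraries, which departs from the planned design, because the libraries form separate clusters.

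Members and lists were chosen with earlier results of these data known. Named genes were all members, a fixed part of a 62-gene pathway list with any other member of it at an absolute log2 difference of at least 1, and for each member the 3 genes with the highest r over diet-centred log2 CPM. Some of the results this rule and the planned tests give are not reported here. Positions are gene spans of RefSeq on GRCm38.p6, which is mm10, matched by symbol for 10 of 10 genes. Alternatives were DESeq2 1.42.0, limma-voom (limma 3.58.1), library size alone, RLE factors, TMM without the 50 genes of highest counts, other low count filters, non-robust fits, doubled counts, an adjusted p under 0.01, a test against 1.5-fold, a clock covariate, 1 surrogate variable (sva 3.50.0) and leaving out libraries; the library total as a covariate was added after seeing the data.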

Additional observations from a re-analysis of the deposited data

Results flagged for a closer look

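Of 66 groups of libraries screened, 5 held a library far from the others of its diet by Dixon's criterion, which chance meets in about 1 group in 20. Western diet replicate 1, the shallowest library, accounts for 3 of them. Slc27a2 was 1658 CPM there, and 944 to 1257 CPM in the rest of that diet. Fabp1 was 579 CPM there, against 250.2 to 393 CPM in the rest of that diet. Angptl8 was 128 CPM there, against 21.1 to 70.35 CPM in the rest of that diet. The remaining 2 stood in other libraries. Fabp5 was 21.5 CPM in chow replicate 8, and 4.54 to 8.69 CPM in the rest of the chow livers, and Lrp1 was 2018 CPM in western diet replicate 4, against 1202 to 1574 CPM in the rest of that diet. Without western diet replicate 4, Lrp1 passed as fallen, with a log2 difference of -0.24 (edgeR adjusted p = 0.023).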

How the results depend on the processing

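Over 32 alternative fits no member or named gene changed sign. Of the 320 fits of single members, 287 gave the outcome of the main fit, which for 4 members was no call. A call was lost in 22 and gained in 11. Slc27a2 lost its call in 12 of its 32 fits. For each member, 17 of the 32 fits left out 1 library and so share most of their data. With library size alone 5 members rose and 1 fell, and 1621 of all genes fell. At an adjusted p under 0.01 in edgeR 0 members fell, while 5 fell at an unadjusted p under 0.05, and at 0.01 DESeq2 called 1 fallen and limma-voom 0. Against a change of 1.5-fold (edgeR's glmTreat) 1 member rose and 0 fell, 0 also at an unadjusted p under 0.05; 2 genes of the pathway rose and 5 fell, and 1108 of all genes rose and 195 fell. Leaving out 1 library gave 2 to 3 members risen and 2 to 4 fallen, and a log2 difference of 1.77 to 1.89 for the ratio of Lpl to Lipc. Relations past the threshold on chow were 2 with RLE factors and 2 with the first principal component of the markers; on western diet 0 passed without replicate 5, with 3 at an unadjusted exact permutation p under 0.05. No paired analysis was possible because replicate numbers here follow accession order and link no mice between diets. Depth limits Vldlr most, whose counts were 39 to 167 on western diet, against 43.5 to 86 on chow.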
